A study of Mus musculus with 26 samples.

Results

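Mural cells are the pericytes and smooth muscle cells that wrap brain vessels, and they share with fibroblasts and endothelial cells the making of the vascular basement membrane and of fibrillar matrix. Of 24454 genes in a table of RNA sequencing counts from sorted mouse glioma cells, 38 were followed here, each found by its Entrez identifier. They were 10 genes known from pericytes, 7 from smooth muscle, 7 of the basement membrane, 6 of the fibrillar and type VI collagens and 8 matrix glycoproteins. Mural cells are drawn to new vessels by PDGF released from endothelium, and Notch signalling between endothelium and mural cells helps them mature. Notch1 and Notch2 are receptors of that pathway, and Rbpj carries their signal to genes. In the brain, perivascular and meningeal fibroblasts also make fibrillar collagens and small proteoglycans, so many matrix genes do not belong to mural cells alone.

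The 26 libraries came from early PDGF+Trp53-/- gliomas of mice, so all 5 genotypes, control included, had PDGF and lacked Trp53. How PDGF and Cre were delivered, and the animals' age, are not stated in the labels. The Rbpj-/- gliomas (4 libraries) also lacked Rbpj, the Notch1-/-Notch2-/- gliomas (5) lacked both receptors, the Notch1-/- gliomas (6) and the Notch2-/- gliomas (5) lacked 1 receptor each, and the control gliomas (6) had intact Notch signalling. Cells that carried GFP from a Cre reporter at the Rosa locus were sorted from dissected tumours, so the libraries are of a sorted fraction and not of whole tumours. Nothing in the labels ties a replicate to its own animal, and the p-values rest on the spread between these libraries, which may be partly technical.

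Library totals lay between 30868828 and 48103535 counts. Genotype names are those of the labels. Rbpj averaged 37.8 ± 13.5 CPM (the count scaled by library size) in Rbpj-/- gliomas and 61.2 ± 6.43 CPM in control gliomas, and Notch2 ran from 6.14 to 8.58 CPM in Notch2-/- libraries and from 9.42 to 16.4 CPM in control libraries (SD; both fell by edgeR's quasi-likelihood test, adjusted p = 0.0222 and 0.0200). Notch2 was not lower past the threshold in Notch1-/-Notch2-/- gliomas, and Notch1 was not lower in Notch1-/- or Notch1-/-Notch2-/- gliomas. These are counts over whole genes, and reads from exons that a deletion leaves in place would be among them. Oligodendrocyte precursor markers, among them Pdgfra and Olig2, summed to between 6763 and 15655 CPM per library over 10 genes, against sums of 5.71 to 152 CPM for the 10 pericyte genes. Both Xist and Ddx3y were present in 3 libraries, namely control replicate 6 and Notch2-/- replicates 3 and 4. Replicate 5 of Notch1-/- stood furthest apart, in the top 3 libraries for 24 of the 38 genes. Rbpj-/- replicate 3 and Notch2-/- replicate 2 were each in the top 3 for 16 genes. Their summed basement membrane genes (912 and 920 CPM) and collagens (656 and 727 CPM) lay above every control library (at most 678 and 511 CPM). Notch1-/- replicate 5 was the highest library for 17 of the 38 genes, including all 7 basement membrane genes and all 6 collagens, so calls that turn on it are also given without it. That choice rests on the values of these same genes, so lower levels without it are partly built in. The p-values of such fits do not allow for the choice.

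The promoter windows of 5 of the 6 pericyte genes that fell and of the matrix gene that rose are printed first, because these genes carry the differences between genotypes; Higd1b is named only. Each is the 250 bases before a RefSeq gene start on GRCm38.p6, printed along the gene's own strand. Capitals mark TGGGAA, the core letters of the motif that RBPJ is known to bind, or its reverse complement TTCCCA. The Entrez identifiers are 22370 for Vtn, 19737 for Rgs5, 268878 for Atp13a5, 16523 for Kcnj8, 20928 for Abcc9 and 14114 for Fbln1.

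Vtn (chr11:78498870-78499119, plus strand): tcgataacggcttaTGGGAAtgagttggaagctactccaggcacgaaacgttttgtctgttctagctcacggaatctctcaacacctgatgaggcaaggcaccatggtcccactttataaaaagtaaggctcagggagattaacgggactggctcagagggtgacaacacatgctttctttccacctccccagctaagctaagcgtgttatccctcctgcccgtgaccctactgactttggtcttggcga

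Rgs5 (chr1:169655251-169655500, plus strand): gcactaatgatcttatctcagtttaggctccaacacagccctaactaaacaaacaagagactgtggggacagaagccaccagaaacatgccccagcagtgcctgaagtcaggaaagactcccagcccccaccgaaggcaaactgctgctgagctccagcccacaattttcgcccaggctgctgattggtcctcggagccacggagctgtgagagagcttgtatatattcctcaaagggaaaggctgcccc

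Atp13a5 (chr16:29378733-29378982, minus strand): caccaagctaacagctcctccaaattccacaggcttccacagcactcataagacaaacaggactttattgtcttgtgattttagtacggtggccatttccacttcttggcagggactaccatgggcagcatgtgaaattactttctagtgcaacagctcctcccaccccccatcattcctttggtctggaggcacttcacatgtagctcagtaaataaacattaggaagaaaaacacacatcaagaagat

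Kcnj8 (chr6:142571615-142571864, minus strand): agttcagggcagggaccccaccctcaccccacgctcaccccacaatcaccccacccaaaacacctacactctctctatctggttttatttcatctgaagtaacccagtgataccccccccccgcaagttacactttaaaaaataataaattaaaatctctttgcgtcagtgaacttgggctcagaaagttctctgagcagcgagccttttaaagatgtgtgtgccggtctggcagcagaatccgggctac

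Abcc9 (chr6:142702275-142702524, minus strand): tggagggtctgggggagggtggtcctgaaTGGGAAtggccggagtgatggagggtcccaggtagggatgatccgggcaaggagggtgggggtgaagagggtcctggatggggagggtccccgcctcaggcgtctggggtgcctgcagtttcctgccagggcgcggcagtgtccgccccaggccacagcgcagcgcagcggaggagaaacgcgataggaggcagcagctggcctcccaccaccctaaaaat

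Fbln1 (chr15:85205699-85205948, plus strand): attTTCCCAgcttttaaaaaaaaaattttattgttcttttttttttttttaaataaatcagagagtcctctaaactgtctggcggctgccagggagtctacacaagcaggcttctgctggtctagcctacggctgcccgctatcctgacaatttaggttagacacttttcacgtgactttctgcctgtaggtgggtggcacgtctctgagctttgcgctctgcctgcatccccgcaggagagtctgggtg

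The letters occurred 236 bases before the start of Vtn, 221 before that of Abcc9 and 247 before that of Fbln1, and in none of the other windows printed. The Abcc9 window lies wholly inside that gene's annotated span, which begins 492 bases upstream of the start used, and 34 bases of the Atp13a5 window lie inside its gene. A second RefSeq start of Fbln1, downstream of the one shown, had no match in its own window. Of the 29 followed genes with a RefSeq window, 8 held the letters on either strand (27.6%), against 6510 of 27025 genes (24.1%). The share among the followed genes was near that of all genes. Kcnj8 and Abcc9, whose proteins are the pore and the regulatory subunit of the vascular ATP-sensitive potassium channel, lie side by side on chromosome 6, 16247 bases apart.

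The pericyte genes separated the genotypes. Rgs5, Vtn, Atp13a5, Higd1b, Kcnj8 and Abcc9 were low in Notch1-/- gliomas, most of them were low in Notch1-/-Notch2-/- gliomas, and 3 were low in Rbpj-/- gliomas past the test, while none passed in Notch2-/- gliomas. The counts that follow are of genes past an adjusted p of 0.05 in edgeR's quasi-likelihood test, adjusted over the 15617 genes tested, and fold changes are on the log2 scale. In Rbpj-/- against control, 5 of 37 tested genes were called, 4 that fell and 1 that rose, where 15.2% of all genes were called, 7.25% that fell and 7.97% that rose. In Notch1-/-Notch2-/- against control, 6 were called, 5 that fell and 1 that rose, where 37.1% of all genes were called, 18.8% that fell and 18.3% that rose. In Notch1-/- against control, 8 were called, 7 that fell and 1 that rose, where 26.7% of all genes were called, 13.5% that fell and 13.2% that rose. Over the whole set of 37, the counts called in either direction were below the share of all genes. The falls were a little above it in Rbpj-/- and Notch1-/- and below it in Notch1-/-Notch2-/- gliomas.

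By class, most falls lay among the pericyte genes. Of 10 pericyte genes, 3 fell in Rbpj-/-, 5 in Notch1-/-Notch2-/- and 6 in Notch1-/- gliomas. Their median log2 fold changes were -1.14, -2.32 and -2.37 in that order, where the medians over all genes were 0.07, 0.01 and 0.03. Of 6 smooth muscle genes tested, 1 fell in Rbpj-/-, 0 in Notch1-/-Notch2-/- and 1 in Notch1-/- gliomas, with medians of 0.07, 0.19 and -0.21. Among the 21 matrix genes, 1 rose in each of these comparisons and 0 fell, with medians of -0.05, -1.21 and -0.36. The 0 falls go with unadjusted p under 0.05 for 1, 5 and 2 matrix genes in either direction. By DESeq2, 0, 4 and 1 matrix genes fell, where 11.0%, 21.2% and 16.5% of all genes fell. By voom with quality weights 0, 8 and 13 fell, where 12.1%, 23.6% and 22.0% of all genes fell. For Notch1-/-Notch2-/- and Notch1-/- the matrix count therefore depends on the test. These comparisons share the 6 control libraries.

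**Figure D1:**
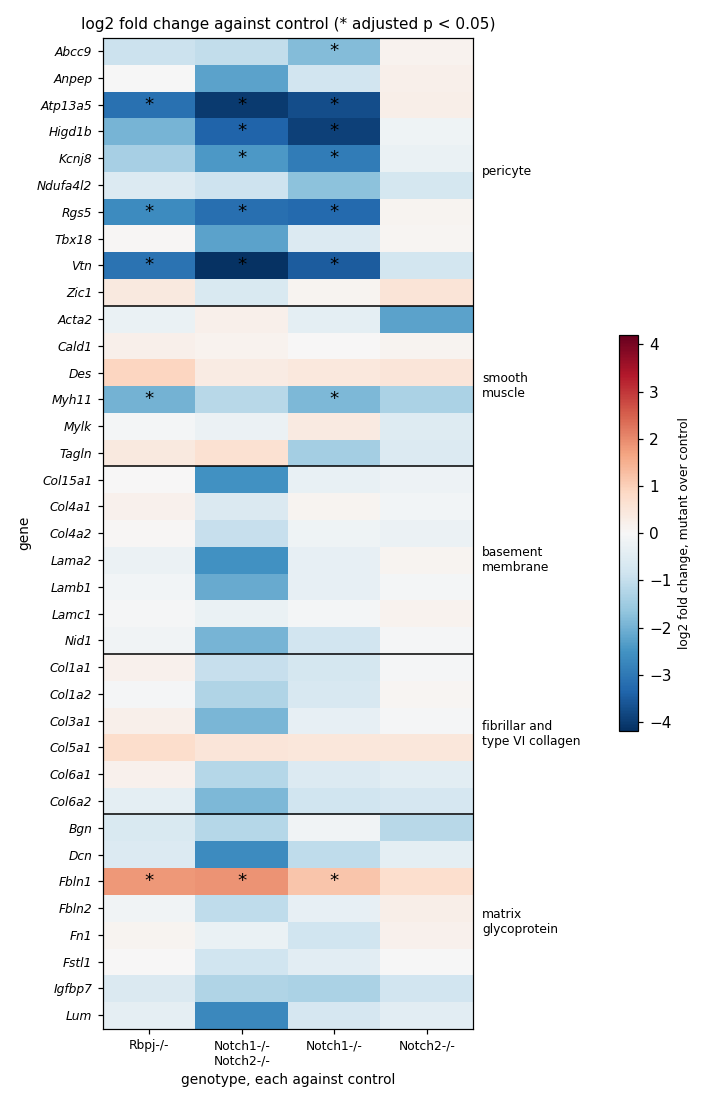
Log2 fold change of the 37 tested genes (rows, grouped by class) in each mutant genotype against control (columns), from edgeR; blue is lower and red is higher in the mutant, and an asterisk marks an adjusted p under 0.05. Falls past the threshold lie among pericyte genes and Myh11, Fbln1 rose in 3 columns, and the Notch2-/- column has no asterisk.

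Rgs5, a regulator of G-protein signalling and a standard pericyte marker, stood at 3.09, 3.81, 2.93 and 9.86 CPM in the Rbpj-/- libraries and at 3.16, 2.30, 5.16, 2.35 and 4.23 CPM in the Notch1-/-Notch2-/- libraries. It ran between 1.61 and 6.11 CPM in Notch1-/- libraries (median 3.01) and stood at 8.04, 32.7, 21.6, 42.1 and 64.3 CPM in the Notch2-/- libraries, against 8.89 to 62.5 CPM in control libraries (median 26.9). Every Notch1-/- and Notch1-/-Notch2-/- library was below every control library, and of the Rbpj-/- libraries only replicate 4 reached into the control range. Rgs5 fell in Rbpj-/- (log2 fold change -2.65 ± 0.57 SE, adjusted p = 0.00593), in Notch1-/-Notch2-/- (-3.17 ± 0.54, adjusted p = 1.5e-04) and in Notch1-/- gliomas (-3.26 ± 0.50, adjusted p = 1.81e-04). In Notch2-/- gliomas its difference from control was 0.12 ± 0.48 (adjusted p = 0.918).

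Vtn encodes vitronectin, an adhesive glycoprotein that brain pericytes secrete. The Rbpj-/- libraries had 2.57, 1.32, 1.05 and 3.20 CPM, and the Notch1-/-Notch2-/- libraries 0.819, 0.689, 1.17, 0.519 and 1.69 CPM. The Notch1-/- libraries ran from 0.601 to 3.78 CPM (median 1.20) and the Notch2-/- libraries had 3.12, 5.14, 11.9, 10.9 and 19.9 CPM, against 7.59 to 40.1 CPM in control libraries (median 14.3). No library of the first 3 genotypes reached the lowest control library, whereas Notch2-/- libraries overlapped the controls. The log2 fold changes were -3.08 ± 0.60 in Rbpj-/- (adjusted p = 0.0034), -4.15 ± 0.58 in Notch1-/-Notch2-/- (adjusted p = 2.57e-05) and -3.51 ± 0.52 in Notch1-/- gliomas (adjusted p = 1.48e-04, edgeR), and -0.77 ± 0.50 in Notch2-/- gliomas (adjusted p = 0.461).

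Atp13a5, a transport ATPase used as a marker of brain pericytes, separated the same genotypes. It had 0.257, 0.658, 0.334 and 0.905 CPM in Rbpj-/- libraries, 0.273, 0.212, 0.420, 0.164 and 0.385 CPM in Notch1-/-Notch2-/- libraries, and 0.190 to 0.483 CPM in Notch1-/- libraries (median 0.377). The Notch2-/- libraries had 1.68, 4.56, 5.12, 6.94 and 10.0 CPM and the control libraries 1.35 to 11.1 CPM (median 3.87). The first 3 genotypes did not overlap the controls, and the Notch2-/- libraries all lay within the control range. It fell by 3.14 ± 0.54 on the log2 scale in Rbpj-/- (adjusted p = 0.00168), by 4.02 ± 0.52 in Notch1-/-Notch2-/- (adjusted p = 1.4e-05) and by 3.71 ± 0.48 in Notch1-/- gliomas (adjusted p = 4.35e-05, edgeR). In a fit of only the 19 libraries with Ddx3y and no Xist, Atp13a5 kept its call in all 3 genotypes, whereas Vtn (adjusted p = 0.0713) and Rgs5 (0.0801) did not pass in Rbpj-/- gliomas.

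Higd1b, a mitochondrial membrane protein found in pericytes, was counted in few reads. Its annotated span overlaps that of Eftud2 by 5670 bases, and how reads there were assigned is not given. The Rbpj-/- libraries held 21, 5, 0 and 7 counts, the Notch1-/-Notch2-/- libraries 2, 3, 5, 0 and 5, and the Notch1-/- libraries 0 to 4. The Notch2-/- libraries held 8, 24, 31, 26 and 67 counts, against 6 to 69 in control libraries. All Notch1-/- and Notch1-/-Notch2-/- libraries were below the lowest control library on the CPM scale. Higd1b fell in Notch1-/-Notch2-/- (-3.37 ± 0.79, adjusted p = 0.0023) and in Notch1-/- gliomas (-3.92 ± 0.78, adjusted p = 0.0015), and in Rbpj-/- gliomas its log2 fold change was -1.94 ± 0.78 (adjusted p = 0.0883, edgeR). DESeq2 called it there (adjusted p = 0.0481), as did edgeR without Rbpj-/- replicate 1, its highest Rbpj-/- library (adjusted p = 0.04999). In the 19 libraries with Ddx3y and no Xist, the Notch1-/-Notch2-/- call was lost (adjusted p = 0.0615).

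Kcnj8, the pore of the potassium channel, had 0.468, 0.427, 0.412 and 0.998 CPM in Rbpj-/- libraries, 0.296, 0.530, 0.233, 0.164 and 0.205 CPM in Notch1-/-Notch2-/- libraries and 0.0274 to 0.452 CPM in Notch1-/- libraries (median 0.181). Notch2-/- libraries had 0.175, 0.532, 1.38, 1.09 and 3.13 CPM, and control libraries 0.351 to 2.68 CPM (median 1.26). All 4 Rbpj-/- libraries were above the lowest control library, 1 Notch1-/-Notch2-/- and 1 Notch1-/- library were, and every library of these 3 genotypes was below the control median. Kcnj8 fell in Notch1-/-Notch2-/- (-2.40 ± 0.63, adjusted p = 0.0048) and in Notch1-/- gliomas (-2.93 ± 0.60, adjusted p = 0.00196). Its value in Rbpj-/- gliomas was -1.39 ± 0.64 (adjusted p = 0.139, edgeR). Abcc9, the channel's regulatory subunit, fell in Notch1-/- gliomas (-1.81 ± 0.44, adjusted p = 0.00567), where libraries ran from 1.012 to 2.83 CPM (median 1.77) against 2.86 to 11.9 CPM in control libraries (median 5.79), with no overlap. In Notch1-/-Notch2-/- gliomas it had 2.77, 3.66, 4.04, 1.28 and 3.90 CPM and in Rbpj-/- gliomas 1.29, 2.27, 3.40 and 7.01 CPM, both overlapping the controls (-1.05 ± 0.46, adjusted p = 0.0736, and -0.89 ± 0.49, adjusted p = 0.218). DESeq2 called Abcc9 in Notch1-/-Notch2-/- gliomas (adjusted p = 0.0450).

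**Figure D2:**
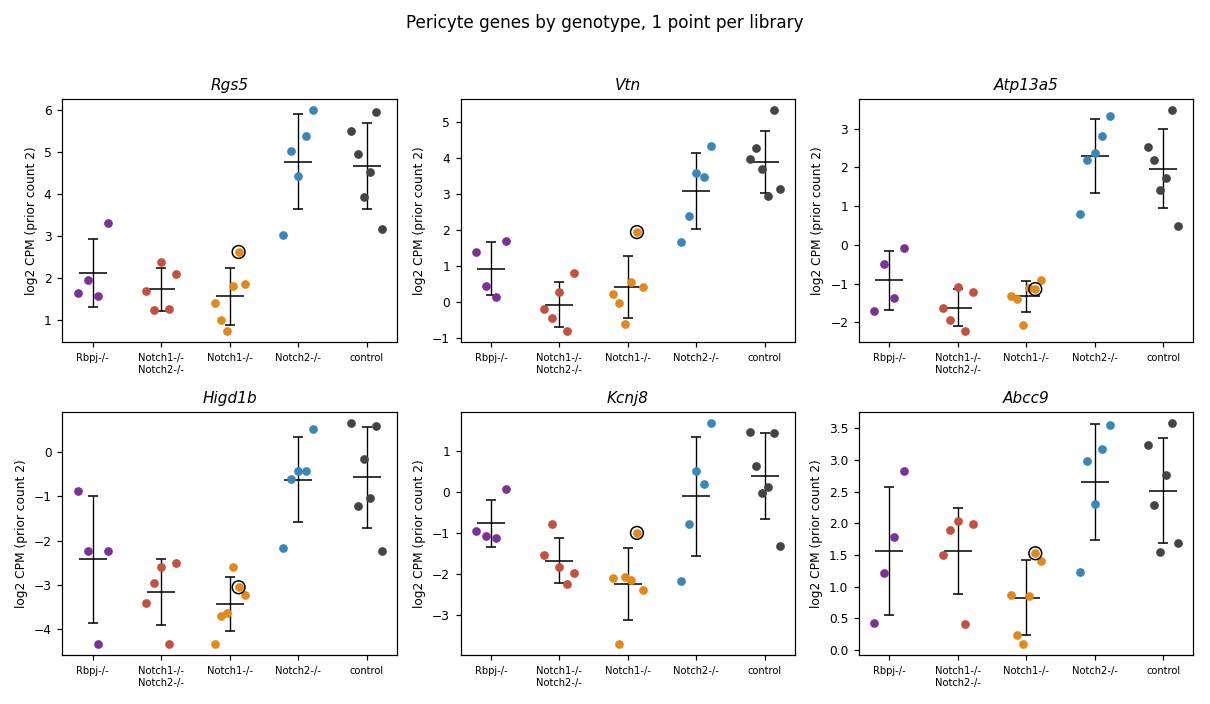
Log2 CPM (prior count 2) of 6 pericyte genes, 1 point per library, in Rbpj-/- (n = 4), Notch1-/-Notch2-/- (n = 5), Notch1-/- (n = 6), Notch2-/- (n = 5) and control (n = 6) gliomas; bars are the mean and SD, and the ring marks Notch1-/- replicate 5. Rgs5, Vtn and Atp13a5 sit low in the first 3 genotypes, though the highest Rbpj-/- point of Rgs5 is within the control range, and at overlapping heights in Notch2-/- and control gliomas. The ringed library is below every control point for these 3 genes. It is the highest Notch1-/- point for Rgs5, Vtn, Kcnj8 and Abcc9, and its Kcnj8 lies within the control range.

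The other 4 pericyte genes did not pass in any comparison with control by edgeR with all libraries and no replicate block. Ndufa4l2, a protein related to a mitochondrial respiratory subunit, had counts of 0, 1, 1, 1, 7 and 26 in Notch1-/- libraries, against 6 to 62 in control libraries (-1.74 ± 0.69, adjusted p = 0.0631), and it passed there with the replicate block (adjusted p = 0.0217). With all libraries, DESeq2 (adjusted p = 0.0351) and voom (0.00310) also called Ndufa4l2 in Notch1-/- gliomas. Anpep, an aminopeptidase at the surface of mural and other cells, and Tbx18 and Zic1, transcription factors of mural cells and of meningeal fibroblasts, did not follow Rgs5 in single libraries. In Notch1-/- replicate 5, Anpep reached 16.1 CPM where the other Notch1-/- libraries had 0.348 to 0.766 CPM, and Tbx18 reached 26.9 CPM where they had 0.341 to 1.09 CPM. Without that library Anpep (-3.53 ± 0.86, adjusted p = 0.00564), Ndufa4l2 (-3.13 ± 0.69, adjusted p = 0.00307) and Tbx18 (-3.51 ± 1.13, adjusted p = 0.0252) fell in Notch1-/- gliomas, and Anpep also fell in Notch1-/-Notch2-/- gliomas (-2.23 ± 0.79, adjusted p = 0.0307, edgeR). Anpep passed in Notch1-/-Notch2-/- gliomas with the replicate block (adjusted p = 0.0448) and without Notch1-/-Notch2-/- replicate 5 (0.0390) as well. With all libraries, voom called Anpep in Notch1-/- (adjusted p = 0.0125) and Notch1-/-Notch2-/- gliomas (0.0123). Tbx18 was called by voom in the same 2 genotypes (0.0433 and 0.0305). In Rbpj-/- replicate 3, Anpep stood at 14.9 and Tbx18 at 26.4 CPM, above every control library, while Rgs5 in that library was 2.93 CPM, the lowest of its genotype. Zic1 ranged from 0.191 to 17.8 CPM over all libraries, with every genotype overlapping control.

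Other mural genes and genes of mural recruitment were read from lists outside the 38. Of 16 other mural genes tested, 2 rose and 0 fell in Rbpj-/-, 1 rose and 4 fell in Notch1-/-Notch2-/-, and 0 rose and 4 fell in Notch1-/- gliomas. The shares of all genes that fell were 7.25%, 18.8% and 13.5% in that order. Without replicate 5 of Notch1-/-, 7 fell in Notch1-/- gliomas, where 14.9% of all genes fell. The falls in Notch1-/- were Art3, a pericyte surface protein (-2.35 ± 0.64, adjusted p = 0.0105), the mural receptor Notch3 (-1.40 ± 0.43, adjusted p = 0.0215), the guanylate cyclase subunit Gucy1a1 (-0.86 ± 0.27, adjusted p = 0.0217) and the transcription factor Ebf1 (-2.36 ± 0.78, adjusted p = 0.0284). Of these, Art3 held whichever library was left out, Notch3 was lost without control replicate 5 (adjusted p = 0.0778), Gucy1a1 without Notch1-/- replicate 3 (0.0518), and Ebf1 in 6 of the 26 fits. In the 19 libraries with Ddx3y and no Xist, Art3 passed in Notch1-/- gliomas, and Notch3 (adjusted p = 0.0511), Gucy1a1 (0.0865) and Ebf1 (0.102) did not. In Notch1-/-Notch2-/- gliomas Gucy1a1 (-1.49 ± 0.29, adjusted p = 4.9e-04), Foxf2, a transcription factor of brain pericytes (-2.84 ± 0.78, adjusted p = 0.00676), and the myosin light chain Myl9 (-1.82 ± 0.53, adjusted p = 0.00992) were among the falls. Srf, the transcription factor that drives smooth muscle genes, rose there (0.74 ± 0.18, adjusted p = 0.00275, edgeR), and these calls held whichever library was left out. Gucy1a1 also passed in the 19 libraries with Ddx3y and no Xist, while Foxf2 (adjusted p = 0.118), Myl9 (0.116) and Srf (0.105) did not. In Rbpj-/- gliomas Smtn, a smooth muscle cytoskeletal protein, rose (1.14 ± 0.31, adjusted p = 0.0186), though not without Rbpj-/- replicate 1 (0.0863) or 2 (0.0526), nor in those 19 libraries (0.186).

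Pdgfrb, the PDGF receptor of mural cells and fibroblasts, is named here after its values were seen. It ranged from 1.81 to 22.2 CPM in Rbpj-/-, from 1.38 to 11.3 CPM in Notch1-/-Notch2-/-, from 0.520 to 47.6 CPM in Notch1-/- and from 3.06 to 20.5 CPM in Notch2-/- libraries, against 9.48 to 23.8 CPM in control libraries. Its fold changes were -0.33 ± 0.92, -1.58 ± 0.89, -0.67 ± 0.82 and -0.34 ± 0.86, and none passed (adjusted p = 0.832, 0.167, 0.558 and 0.867, edgeR). Its highest library was Notch1-/- replicate 5, as it was for Tbx18. Without that library Pdgfrb fell in Notch1-/- (-3.26 ± 0.62, adjusted p = 0.00113) and in Notch1-/-Notch2-/- gliomas (-1.58 ± 0.57, adjusted p = 0.0330, edgeR).

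Of 14 genes of mural recruitment and vessel signalling, 3 fell in Rbpj-/-, 8 fell in Notch1-/-Notch2-/-, and 8 fell and 1 rose in Notch1-/- gliomas, where 7.25%, 18.8% and 13.5% of all genes fell. S1pr1, a sphingosine phosphate receptor, averaged 15.8 ± 4.60 CPM in Rbpj-/-, 5.98 ± 1.34 CPM in Notch1-/-Notch2-/- and 13.5 ± 4.37 CPM in Notch1-/- gliomas, against 56.5 ± 21.6 CPM in control gliomas (SD). Its log2 fold changes were -1.83 ± 0.29, -3.24 ± 0.28 and -2.07 ± 0.25 (SE; adjusted p = 8.13e-04, 2.16e-07 and 2.36e-05 by edgeR). Tek, the angiopoietin receptor of endothelium, fell by 2.85 ± 0.55, 3.55 ± 0.52 and 3.66 ± 0.49 on the log2 scale in the same order (adjusted p = 0.0032, 4.31e-05 and 5.85e-05). Acvrl1, an endothelial receptor of BMP ligands, fell in all 3 as well, by 1.81 ± 0.47, 2.67 ± 0.45 and 2.39 ± 0.42 (adjusted p = 0.0149, 1.62e-04 and 5.67e-04), though in Rbpj-/- not without its replicate 2 (0.0525). Tek (adjusted p = 0.0704) and Acvrl1 (0.122) did not pass in Rbpj-/- gliomas in the 19 libraries with Ddx3y and no Xist. Tek is also on the endothelial list that follows.

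Markers of other cells moved with the pericyte genes. The 15 endothelial markers summed to 28.1 to 47.3 CPM in Rbpj-/-, 22.1 to 38.4 CPM in Notch1-/-Notch2-/-, 18.3 to 47.7 CPM in Notch1-/- and 51.4 to 178 CPM in Notch2-/- gliomas, against 64.9 to 261 CPM in control gliomas. Of these 15 markers, 10 fell in Rbpj-/-, 13 fell and 1 rose in Notch1-/-Notch2-/-, 12 fell in Notch1-/- and 0 fell in Notch2-/- gliomas. Of all genes 7.25%, 18.8% and 13.5% fell in the first 3, and 0.295% were called in Notch2-/- gliomas. These shares stand beside the edgeR counts of the other cell types below as well. The 15 microglia and macrophage markers summed to a median of 184 CPM in Rbpj-/-, 130 CPM in Notch1-/-Notch2-/-, 113 CPM in Notch1-/- and 487 CPM in Notch2-/- gliomas, against 1136 CPM in control gliomas, and 14, 14, 15 and 0 of them fell by edgeR. In Notch2-/- gliomas 8 microglia markers had an unadjusted p under 0.05, as did 2315 of all 15617 genes tested. DESeq2 called 6 of the markers and voom 8, where they called 2.20% and 11.5% of all genes. Mature oligodendrocyte and astrocyte markers fell in the same 3 genotypes, by the counts that follow. The 10 mature oligodendrocyte markers summed to 3186 to 8534 CPM in Rbpj-/-, 2003 to 5512 CPM in Notch1-/-Notch2-/-, 2098 to 19692 CPM in Notch1-/- and 2042 to 19535 CPM in Notch2-/- gliomas, against 8948 to 23986 CPM in control gliomas, and 8, 10, 7 and 0 of them fell. The 10 astrocyte markers summed to 844 to 1363 CPM in Rbpj-/-, 526 to 1111 CPM in Notch1-/-Notch2-/-, 848 to 1379 CPM in Notch1-/- and 1789 to 2655 CPM in Notch2-/- gliomas, against 1390 to 2474 CPM in control gliomas, and 5, 8, 7 and 0 of them fell by edgeR. Endothelial Pecam1 and Cdh5 were above 0 in every library. The part of these cells in the pericyte result was not tested. In bulk libraries, fewer cells of a type and less RNA per cell cannot be told apart.

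Smooth muscle genes gave little separation. Myh11, the smooth muscle myosin heavy chain, had a lower median in every mutant genotype than in control, with 0.117, 0.230, 0.0772 and 0.696 CPM in Rbpj-/- libraries and 0.273, 0.662, 0.886, 0.519 and 0.154 CPM in Notch1-/-Notch2-/- libraries. Notch1-/- libraries ran from 0.147 to 0.520 CPM (median 0.273) and Notch2-/- libraries had 0.328, 0.304, 0.222, 0.614 and 0.786 CPM, against 0.366 to 1.89 CPM in control libraries (median 1.16). Each mutant genotype overlapped the controls by at least 1 library. Myh11 fell in Rbpj-/- (-1.99 ± 0.58, adjusted p = 0.0258) and in Notch1-/- gliomas (-1.89 ± 0.50, adjusted p = 0.00928), and did not pass in Notch1-/-Notch2-/- (-1.17 ± 0.51, adjusted p = 0.0746) or Notch2-/- gliomas (-1.32 ± 0.52, adjusted p = 0.266, edgeR). Voom called Myh11 in Notch1-/-Notch2-/- gliomas (adjusted p = 0.00970). The Rbpj-/- call did not hold without replicate 1 (adjusted p = 0.0776), 2 (0.0725) or 3 (0.0530) of Rbpj-/- or without control replicate 5 (0.0514), and both the Rbpj-/- and the Notch1-/- call were lost in the 19 libraries with Ddx3y and no Xist (0.203 and 0.0715). The lowest library held 3 counts of Myh11 and the highest 90.

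Acta2, smooth muscle alpha-actin, was scattered within genotypes. It had 4.73, 0.362, 1.23 and 9.01 CPM in Rbpj-/- libraries, 1.07, 9.16, 0.956, 10.3 and 6.02 CPM in Notch1-/-Notch2-/- libraries and 0.474 to 8.37 CPM in Notch1-/- libraries (median 1.89). In Notch2-/- libraries it stood at 0.590, 1.11, 1.13, 0.908 and 1.24 CPM, all below the control range of 1.97 to 7.21 CPM (median 4.42). The Notch2-/- fold change was -2.23 ± 0.78 (adjusted p = 0.226, unadjusted p = 0.00871) with all 26 libraries in the fit, and Acta2 passed when only the Notch2-/- and control libraries entered it, where 0.980% of all genes fell. Tagln, transgelin, ran from 0.0949 to 2.33 CPM in Notch1-/- libraries (median 0.216) against 0.621 to 2.88 CPM in control libraries (median 1.30). Only replicate 5 of Notch1-/- was within the control range. Its fold change was -1.41 ± 0.72 (adjusted p = 0.138), and it fell without that library (-2.81 ± 0.68, adjusted p = 0.00523, edgeR).

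Desmin, the intermediate filament gene Des, was higher in all 4 Rbpj-/- libraries, at 4.45, 4.87, 2.32 and 2.99 CPM, than in any control library, which had 1.56 to 2.24 CPM (0.91 ± 0.41, adjusted p = 0.13, edgeR). Mylk, myosin light chain kinase, and Cald1, caldesmon, which many cells besides muscle express, overlapped control in every genotype, with adjusted p of at least 0.449. Cald1 alone made up most of the smooth muscle sum, at 75.8 to 168 CPM per library. Cnn1, calponin, was too low to be tested, with 0 to 12 counts per library.

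**Figure D3:**
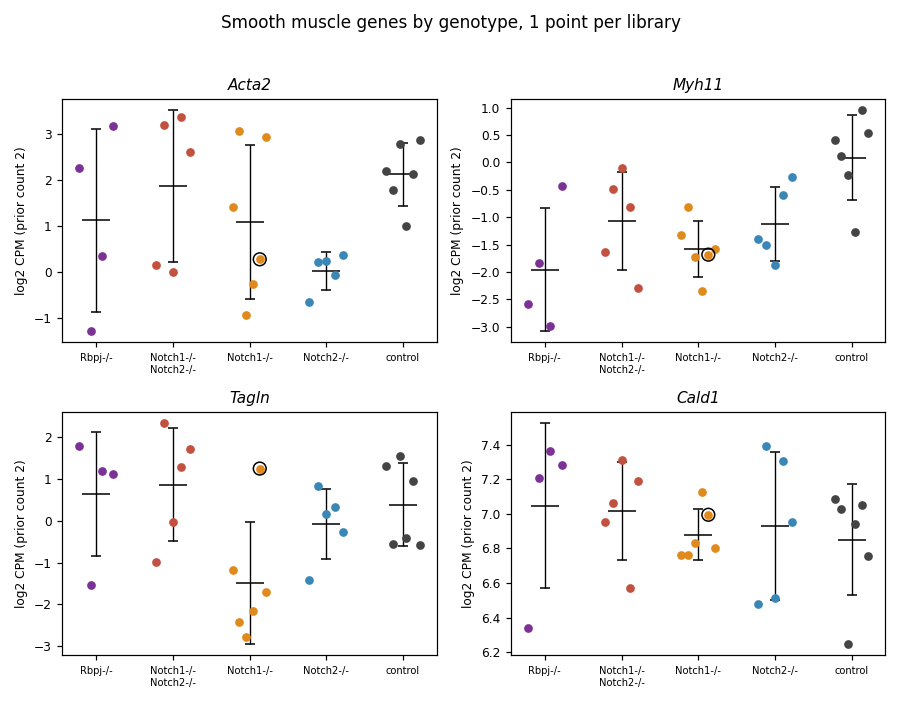
Log2 CPM (prior count 2) of 4 smooth muscle genes, 1 point per library, in Rbpj-/-, Notch1-/-Notch2-/-, Notch1-/-, Notch2-/- and control gliomas (n = 4, 5, 6, 5 and 6); bars are the mean and SD, and the ring marks Notch1-/- replicate 5. Acta2 spreads widely in 3 mutant genotypes and lies low in all 5 Notch2-/- libraries, Tagln is low in 5 of 6 Notch1-/- libraries, and Cald1 overlaps throughout.

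Most matrix genes spread widely between libraries of the same genotype. Col3a1, the chain of type III collagen, had 162, 1.87, 365 and 39.6 CPM in Rbpj-/- libraries and 19.4, 24.3, 1.73, 7.05 and 109 CPM in Notch1-/-Notch2-/- libraries. Notch1-/- libraries had 5.70, 0.848, 4.08, 17.9, 541 and 3.24 CPM and Notch2-/- libraries 7.97, 355, 148, 48.8 and 34.9 CPM, against 53.2 to 230 CPM in control libraries (median 109). In Notch1-/- gliomas 5 of 6 libraries were below every control library and replicate 5 was above every library of the series. The fold changes were 0.22 ± 1.37 in Rbpj-/-, -1.91 ± 1.36 in Notch1-/-Notch2-/-, -0.35 ± 1.23 in Notch1-/- and -0.03 ± 1.29 in Notch2-/- gliomas, and none passed (adjusted p = 0.929, 0.275, 0.854 and 0.994, edgeR). Voom, which weights libraries by quality, called Col3a1 in Notch1-/- gliomas (-3.07 ± 1.17, adjusted p = 0.0368).

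Without Notch1-/- replicate 5, Col3a1 fell in Notch1-/- gliomas (-4.26 ± 1.16, adjusted p = 0.011), and in all 27 of the 37 genes fell and 1 rose, where 14.9% of all genes fell and 12.8% rose. That library was left out because it was the highest for many of these same genes, so these falls are partly built in. The share of all genes was not chosen in this way. The 27 were 9 pericyte, 2 smooth muscle and 16 matrix genes. Of the 7 basement membrane genes 5 fell, of the 6 collagens 5 and of the 8 glycoproteins 6, with class medians of -2.43, -3.58 and -1.91. Dcn, decorin, fell by 4.90 ± 1.42 (adjusted p = 0.0152), Col1a1 by 4.16 ± 1.05 (adjusted p = 0.00695), Col15a1 by 3.80 ± 0.88 (adjusted p = 0.00419) and the linker protein nidogen, Nid1, by 3.39 ± 0.89 (adjusted p = 0.00873). With all libraries those 4 genes had -1.06 ± 1.37, -0.73 ± 1.12, -0.31 ± 1.04 and -0.81 ± 0.98. The median over all genes was 0.03 in both fits.

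The same replicate held more of the meningeal fibroblast markers than the other Notch1-/- libraries, though its sum was below the control median of 343 CPM. Its 12 such markers summed to 275 CPM, where the other Notch1-/- libraries summed to between 18.4 and 94.8 CPM and control libraries to between 104 and 709 CPM. Over genotypes these sums ran from 20.5 to 167 CPM in Rbpj-/-, 28.7 to 85.5 CPM in Notch1-/-Notch2-/-, 18.4 to 275 CPM in Notch1-/- and 61.5 to 266 CPM in Notch2-/- gliomas. Of the 12 markers, 2 fell in Rbpj-/-, 3 in Notch1-/-Notch2-/-, 2 in Notch1-/- and 0 in Notch2-/- gliomas. Of all genes 7.25%, 18.8% and 13.5% fell in the first 3, and 0.295% were called in Notch2-/- gliomas. Without replicate 5, 10 of the 12 fell in Notch1-/- gliomas, where 14.9% of all genes fell. Slc22a6, a transporter of meningeal fibroblasts, was at 0 in at least 1 library of Rbpj-/-, Notch1-/-Notch2-/- and Notch1-/- gliomas. The part of fibroblast RNA in the matrix values was not tested. In replicate 5 of Notch1-/-, Rgs5 (6.11 CPM), Vtn (3.78 CPM) and Atp13a5 (0.404 CPM) were all below the lowest control library, while Col3a1 was the highest of the series. Rgs5 and Vtn there were still the highest of the Notch1-/- libraries. Kcnj8, at 0.452 CPM, was above the lowest control library (0.351 CPM).

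**Figure D4:**
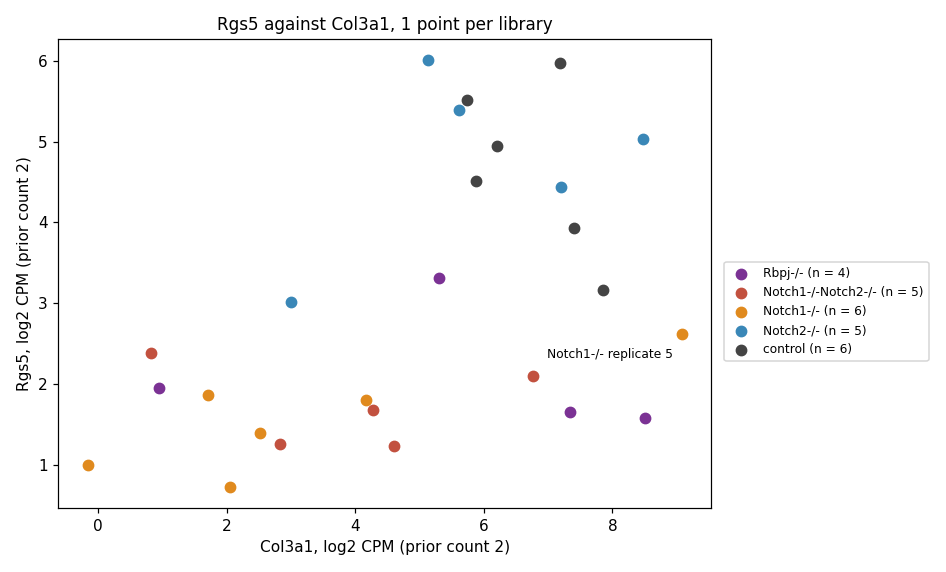
Rgs5 (y axis) against Col3a1 (x axis), both in log2 CPM with a prior count of 2, 1 point per library, coloured by genotype. All Notch1-/-Notch2-/- and Notch1-/- libraries lie below every control library on the Rgs5 axis, at any level of Col3a1. The highest Rbpj-/- library (9.86 CPM of Rgs5) reaches into the control range, and the lowest Notch2-/- library (8.04 CPM) lies below it. The far right point is Notch1-/- replicate 5, with 541 CPM of Col3a1 and 6.11 CPM of Rgs5.

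The basement membrane genes were lowest on average in Notch1-/-Notch2-/- gliomas for all 7 members. Lama2, a laminin alpha chain, had 5.50, 2.99, 4.04, 1.42 and 17.3 CPM there, all below the control range of 22.3 to 64.2 CPM (median 31.1), with a fold change of -2.56 ± 1.05 (adjusted p = 0.058, edgeR). It was at 16.5, 2.60, 98.9 and 5.34 CPM in Rbpj-/- libraries and 1.77 to 140 CPM in Notch1-/- libraries (median 5.53), where replicate 3 of Rbpj-/- and replicate 5 of Notch1-/- lay above every control library and all others below. Col15a1, a collagen of the outer basement membrane (-2.53 ± 1.19, adjusted p = 0.0951), Lamb1, a laminin beta chain (-2.13 ± 1.16, adjusted p = 0.152), and Nid1 (-1.94 ± 1.08, adjusted p = 0.161) also had negative values in Notch1-/-Notch2-/- gliomas that did not pass by edgeR with all libraries. There DESeq2 called Lama2 (adjusted p = 0.0214) and Col15a1 (0.0423). Voom called Lama2 (0.00908), Col15a1 (0.0246), Lamb1 (0.0256) and Nid1 (0.0232), and edgeR with the replicate block called Lama2 (0.0275). Without Notch1-/- replicate 5 in the shared fit, 13 members fell and 1 rose in Notch1-/-Notch2-/- gliomas, where 19.0% of all genes fell and 18.0% rose. Lama2 (adjusted p = 0.0214), Col15a1 (0.0198) and Col4a2 (0.0350) were among the falls. Without Notch1-/-Notch2-/- replicate 5, which had the highest Lama2 of its genotype, 11 fell and 1 rose, where 16.4% of all genes fell and 16.2% rose.

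Lamc1, a laminin gamma chain, and Col4a1 and Col4a2, the main chains of type IV collagen, were steadier. Lamc1 had 155, 149, 231 and 156 CPM in Rbpj-/- libraries, 179, 124, 163, 94.8 and 179 CPM in Notch1-/-Notch2-/- libraries, and 127 to 263 CPM in Notch1-/- libraries (median 151), against 144 to 217 CPM in control libraries (median 180). The groups overlapped, and its fold changes ran from -0.27 to 0.16. Col4a1 ranged from 66.1 to 153 CPM in Rbpj-/-, from 38.05 to 78.1 CPM in Notch1-/-Notch2-/-, from 19.0 to 348 CPM in Notch1-/- and from 53.9 to 142 CPM in Notch2-/- libraries, against 59.2 to 146 CPM in control libraries. Col4a1 and Col4a2 lie head to head on chromosome 8 and their annotated spans overlap by 85 bases. Among collagens, Col5a1, which regulates fibril width, had positive values in all 4 comparisons (0.46 to 0.73) with adjusted p of at least 0.171. By edgeR, Col1a1, Col1a2, Col6a1 and Col6a2 did not pass in any genotype with all libraries in the fit. Without Notch1-/- replicate 5 all 4 fell in Notch1-/- gliomas, Col1a2 by 4.08 ± 1.05 (adjusted p = 0.00794), Col6a1 by 2.51 ± 0.83 (adjusted p = 0.0281) and Col6a2 by 3.08 ± 0.71 (adjusted p = 0.00399, edgeR), with Col1a1 as given above. With all libraries, voom called Col1a1 (adjusted p = 0.0350), Col1a2 (0.0335) and Col6a2 (0.0106) in Notch1-/- gliomas, and Col6a2 in Notch1-/-Notch2-/- gliomas (0.0325). For 15 of the 21 matrix genes 5 of 6 Notch1-/- libraries lay below every control library, and for 13 of these the remaining library lay above every control library. The share of all genes with such a split was not counted, so these counts cannot be read as an excess among matrix genes.

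Fbln1, which encodes a fibulin, a glycoprotein of basement membranes and elastic fibres, was the matrix gene that rose. It had 40.8, 8.12, 7.46 and 13.9 CPM in Rbpj-/- libraries, 15.7, 22.6, 13.9, 24.5 and 14.4 CPM in Notch1-/-Notch2-/- libraries and 2.87 to 18.2 CPM in Notch1-/- libraries (median 11.7). Notch2-/- libraries had 9.37, 8.13, 8.63, 5.98 and 8.22 CPM, against 3.46 to 5.97 CPM in control libraries (median 4.94). All Rbpj-/-, Notch1-/-Notch2-/- and Notch2-/- libraries lay above every control library, and 5 of 6 Notch1-/- libraries did. Fbln1 rose in Rbpj-/- (1.83 ± 0.40, adjusted p = 0.00593), in Notch1-/-Notch2-/- (1.89 ± 0.38, adjusted p = 6.85e-04) and in Notch1-/- gliomas (1.17 ± 0.36, adjusted p = 0.0211), and its value in Notch2-/- gliomas was 0.71 ± 0.38 (adjusted p = 0.375, edgeR). The Rbpj-/- call did not hold without replicate 1 of Rbpj-/- (adjusted p = 0.0607), and the Notch1-/- call did not hold without Notch1-/- replicate 3 (0.0616) or control replicate 2 (0.0513). In the 19 libraries with Ddx3y and no Xist neither passed (0.0713 and 0.0982).

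**Figure D5:**
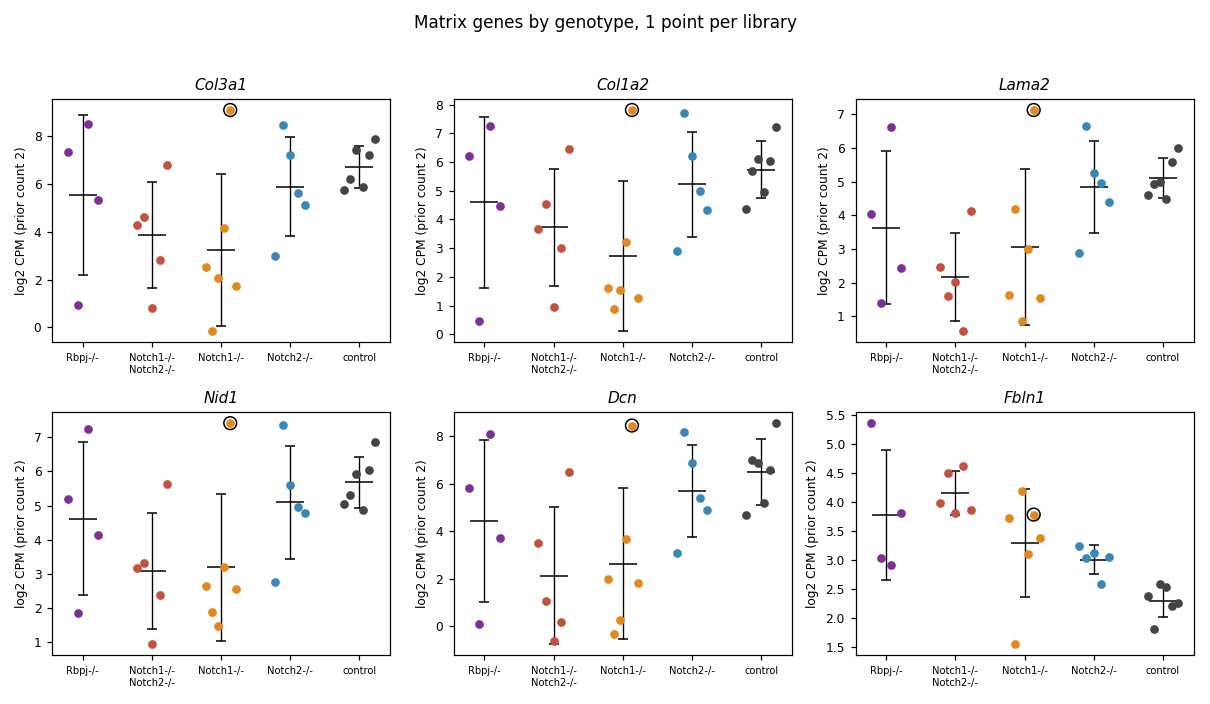
Log2 CPM (prior count 2) of 6 matrix genes, 1 point per library, in Rbpj-/-, Notch1-/-Notch2-/-, Notch1-/-, Notch2-/- and control gliomas (n = 4, 5, 6, 5 and 6); bars are the mean and SD, and the ring marks Notch1-/- replicate 5. The ringed library is the highest Notch1-/- point for Col3a1, Col1a2, Lama2, Nid1 and Dcn, while Fbln1 lies above control in 5 of 6 Notch1-/- libraries and in every library of the other mutants.

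Of the other 7 glycoproteins none passed by edgeR with all libraries in the fit. Dcn, a small proteoglycan that binds collagen fibrils, had 57.5, 1.02, 277 and 13.0 CPM in Rbpj-/- libraries, 11.2, 2.07, 0.606, 1.07 and 90.5 CPM in Notch1-/-Notch2-/- libraries and 0.739 to 353 CPM in Notch1-/- libraries (median 3.69), against 25.6 to 378 CPM in control libraries (median 106). Every mutant genotype had a library within the control range. Lum, lumican, a relative of Dcn that lies 47337 bases from it on chromosome 10, had a fold change of -2.69 ± 1.09 in Notch1-/-Notch2-/- gliomas (adjusted p = 0.0544, edgeR), and DESeq2 called it there (adjusted p = 0.0180). Igfbp7, a vessel-associated binding protein, had -1.27 ± 0.57 in Notch1-/-Notch2-/- (adjusted p = 0.0822) and -1.32 ± 0.54 in Notch1-/- gliomas (adjusted p = 0.0682), and DESeq2 called both (adjusted p = 0.0437 and 0.0290), as did edgeR with the replicate block (0.0436 and 0.0191). Fn1, fibronectin, Fbln2, Fstl1, a follistatin relative, and Bgn, biglycan, had adjusted p of at least 0.164 by edgeR in every genotype with all libraries in the fit. Voom called Fbln2 (adjusted p = 0.0283), Fn1 (0.0426), Dcn (0.0219), Lum (0.0400) and Igfbp7 (0.00150) in Notch1-/- gliomas. In Notch1-/-Notch2-/- gliomas it called Dcn (0.0174), Lum (0.0153) and Igfbp7 (0.0184). Without Notch1-/- replicate 5, Fbln2 (-2.30 ± 0.44, adjusted p = 0.00127), Igfbp7 (-2.32 ± 0.45, adjusted p = 0.00140), Fn1 (-1.52 ± 0.40, adjusted p = 0.00923), Fstl1 (-1.50 ± 0.44, adjusted p = 0.0165) and Lum (-2.74 ± 0.90, adjusted p = 0.0277, edgeR) fell in Notch1-/- gliomas, and Bgn did not pass (adjusted p = 0.677). In that fit Lum (0.0223), Igfbp7 (0.0254) and Fbln2 (0.0495) passed in Notch1-/-Notch2-/- gliomas too. Bgn was highest in the series in Notch1-/- replicate 2, at 255 CPM, where Dcn was 0.739 CPM.

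Of 24 matrix genes outside the 38 that were tested, 3 rose and 0 fell in Rbpj-/-, 5 rose and 1 fell in Notch1-/-Notch2-/-, and 2 rose and 2 fell in Notch1-/- gliomas. The shares of all genes that rose were 7.97%, 18.3% and 13.2% in that order, and those that fell 7.25%, 18.8% and 13.5%. Without replicate 5 of Notch1-/-, 2 rose and 11 fell in Notch1-/- gliomas, where 12.8% of all genes rose and 14.9% fell. Hspg2, the basement membrane proteoglycan perlecan, averaged 114 ± 70.4 CPM in Rbpj-/- and 111 ± 57.8 CPM in Notch1-/-Notch2-/- gliomas, against 33.0 ± 18.1 CPM in control gliomas (SD). It rose in both (1.79 ± 0.42, adjusted p = 0.00942, and 1.76 ± 0.41, adjusted p = 0.00208, edgeR), and both calls held whichever library was left out but not in the 19 libraries with Ddx3y and no Xist (0.113 and 0.0826). Agrn, the proteoglycan agrin, rose in Notch1-/- gliomas (0.67 ± 0.16, adjusted p = 0.00437), and Lama4, a laminin alpha chain of vessels, did too (0.90 ± 0.26, adjusted p = 0.0137). These calls also held whichever library was left out but not in those 19 libraries (0.0533 and 0.0797), whereas the rise of Agrn in Rbpj-/- (0.60 ± 0.17, adjusted p = 0.0233) and Notch1-/-Notch2-/- gliomas (0.46 ± 0.16, adjusted p = 0.0313) was lost in 4 and in 6 of 26 such fits. Col18a1, the source of endostatin, rose in Rbpj-/- (2.77 ± 0.85, adjusted p = 0.0301) and in Notch1-/-Notch2-/- gliomas (2.40 ± 0.81, adjusted p = 0.0233), and was lost in 5 and in 2 of 26 such fits, with the highest adjusted p without Rbpj-/- replicate 1 (0.260) and without Notch1-/-Notch2-/- replicate 2 (0.111). Neither call held with the replicate block (0.0978 and 0.0597) or in the 19 libraries (0.109 and 0.175), and voom did not call the Rbpj-/- rise (0.179). Efemp1 (-1.53 ± 0.50, adjusted p = 0.0278) and Sparc (-0.82 ± 0.29, adjusted p = 0.0412), both secreted matrix proteins, fell in Notch1-/- gliomas, and were lost in 5 and 9 of 26 fits with 1 library left out.

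Of 21 genes of matrix assembly and turnover, 3 rose and 0 fell in Rbpj-/-, 3 rose and 3 fell in Notch1-/-Notch2-/-, and 2 rose and 0 fell in Notch1-/- gliomas. Of all genes 7.97%, 18.3% and 13.2% rose and 7.25%, 18.8% and 13.5% fell. Without replicate 5 of Notch1-/-, 2 rose and 6 fell in Notch1-/- gliomas, where 12.8% of all genes rose and 14.9% fell. Plod2, a collagen lysyl hydroxylase, rose in Notch1-/-Notch2-/- gliomas (0.95 ± 0.26, adjusted p = 0.00619, edgeR), and this held whichever library was left out but not in the 19 libraries with Ddx3y and no Xist (0.160). Its rise in Rbpj-/- (0.81 ± 0.27, adjusted p = 0.0454) and Notch1-/- gliomas (0.67 ± 0.25, adjusted p = 0.0449) was lost in 12 and 13 of 26 such fits. Timp1, an inhibitor of matrix metalloproteinases, rose in Rbpj-/- (2.98 ± 0.95, adjusted p = 0.0375) and Notch1-/-Notch2-/- gliomas (2.62 ± 0.92, adjusted p = 0.0278), and was lost in 7 and in 4 of 26 such fits, with the highest adjusted p without Rbpj-/- replicate 1 (0.190) and without Notch1-/-Notch2-/- replicate 2 (0.0854). Neither call held with the replicate block (0.134 and 0.0691) or in the 19 libraries (0.139 and 0.189), and voom did not call the Rbpj-/- rise (0.0854).

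In Notch2-/- against control, 0 of 37 genes were called by edgeR, where 0.295% of all genes were called. Unadjusted p was under 0.05 for 2 of them, Acta2 and Myh11, and DESeq2 and voom also called 0, where they called 2.20% and 11.5% of all genes. The pericyte median was 0.11 and the matrix median -0.05. None of the other mural, mural recruitment, other matrix or matrix assembly genes passed by edgeR, with unadjusted p under 0.05 for 1, 0, 0 and 1 gene. DESeq2 called 0 in each of these 4 lists, and voom called 1 matrix assembly gene that rose and 0 in the other lists. Cspg4, the proteoglycan of pericytes and of oligodendrocyte precursors and the most expressed of the other mural genes, averaged 713 ± 149 CPM in Notch2-/- and 538 ± 132 CPM in control gliomas (SD).

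The loss of either receptor was compared directly. In Notch1-/- against Notch2-/- gliomas, 6 of 37 genes were called, all of which fell, where 3.09% of all genes were called and 2.25% fell. All 6 were pericyte genes, and 0 smooth muscle and 0 matrix genes were called (unadjusted p under 0.05 for 2 and 1; DESeq2 and voom also called 0, where they called 7.04% and 12.2% of all genes). The log2 fold changes were -3.96 ± 0.49 for Atp13a5 (adjusted p = 5.34e-05), -3.39 ± 0.51 for Rgs5 (adjusted p = 3.98e-04), -3.75 ± 0.79 for Higd1b (adjusted p = 0.0085) and -2.74 ± 0.52 for Vtn (adjusted p = 0.00305, edgeR). For Atp13a5, Rgs5 and Higd1b no Notch1-/- library reached the lowest Notch2-/- library. Kcnj8 (-2.66 ± 0.62, adjusted p = 0.0161) and Abcc9 (-1.95 ± 0.46, adjusted p = 0.0179) overlapped between the genotypes, and neither call held without Notch2-/- replicate 5 (adjusted p = 0.0871 and 0.0627). In the 19 libraries with Ddx3y and no Xist, Atp13a5 and Rgs5 passed and the other 4 did not (adjusted p = 0.0752 to 0.146). Without Notch1-/- replicate 5, 18 genes fell, 8 of them pericyte and 10 of them matrix genes, where 3.77% of all genes fell. That library was left out for its high values of these same genes, so these falls are partly built in. Notch2-/- replicate 2, whose collagens (727 CPM) also lay above every control library, stayed in the fit. The 3.77% was not chosen in this way, so the 2 cannot be weighed against each other.

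Rbpj is the shared effector of both receptors, and its loss was set against the loss of both. In Rbpj-/- against Notch1-/-Notch2-/- gliomas, 0 of 37 genes were called by edgeR, where 0.794% of all genes were called. Unadjusted p was under 0.05 for 1 gene, Lama2 (2.30 ± 1.10, adjusted p = 0.396), and DESeq2 and voom also called 0, where they called 2.03% and 0.948% of all genes. The median log2 fold change was 1.03 over the pericyte genes and 1.15 over the matrix genes, and 33 of the 37 values were positive, where the median over all genes was 0.06. With 4 and 5 libraries of such unequal levels, a missed threshold does not show that the genotypes are alike. S1pr1 was the gene of the related lists that passed, at 1.40 ± 0.28 (adjusted p = 0.0197), and it was lost in 4 of 26 fits with 1 library left out.

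Levels can be set against each other only per length. In control gliomas Dcn had 62.1 ± 61.0 CPM per kb of deposited gene length, Bgn 38.6 ± 19.9, Lum 32.1 ± 22.8, Cald1 29.1 ± 5.64, Lamc1 23.4 ± 3.14 and Col3a1 21.9 ± 12.8 (SD, n = 6). Of the pericyte genes, Vtn was at 9.94 ± 6.84 CPM per kb, Rgs5 at 6.81 ± 4.41, Higd1b at 1.09 ± 0.786 and Atp13a5 at 1.05 ± 0.765. From Dcn to Col3a1, neighbours in this order did not differ beyond their spread. Myh11, at 0.170 ± 0.0792, and Cnn1, at 0.0103 ± 0.0100, were the lowest.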

How the data were processed

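RNA was sequenced on a NextSeq 500 from stranded TruSeq libraries of sorted cells, per the labels' protocols. The deposited values were whole-number counts per gene in 26 libraries, and the authors gave a gene length beside each. STAR and mm10 are named in the submitters' processing notes. How reads were assigned to genes (tool, annotation, use of strand) is not given in the sources used here. Counts of 17 followed genes, whose annotated span overlaps another gene, are therefore uncertain. Among them are the pericyte genes Higd1b (5670 bases shared), Abcc9 (11868), Atp13a5 (42), Zic1 (138) and Ndufa4l2 (32), and the smooth muscle gene Tagln (2480). Entrez identifiers were matched for 24374 of 24454 genes, and the 80 unmatched hold 0.348% of counts.

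Counts were tested with edgeR 4.0.16 in R 4.3.3 (TMM scaling, filterByExpr, quasi-likelihood, genotype as the only term, all 26 libraries in the fit). P-values were adjusted by Benjamini-Hochberg over 15617 genes, with a threshold of 0.05. The SE is that of the log2 fold change. DESeq2 1.42.0, voom in limma 3.58.1, other scalings and filters, a block for the replicate number, subsets by Xist (10 CPM) and Ddx3y (1 CPM) and each library left out were run as alternatives. CPM use TMM-scaled library sizes. Plotted log2 CPM have a prior count of 2, and CPM per kb use the deposited lengths. The testing code was checked on simulated data.

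The followed genes and all lists were chosen with earlier results of these data known. All 38 genes are described. From each other list, at most 4 called genes with the smallest adjusted p are named per comparison with control, or the most expressed where none passed. Some genes stand on more than 1 list.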

Additional observations from a re-analysis of the deposited data

Results flagged for a closer look

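Each gene was screened in each of the 5 genotypes for a highest or lowest library far from the others of its genotype. Of 190 such groups 17 held 1, and chance alone gives about 1 in 20. Of the 17, 10 were the highest level in Notch1-/- replicate 5.

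In that library Nid1 stood at 171 CPM where the other Notch1-/- libraries reached at most 9.13 CPM, Lamb1 at 159 CPM (at most 5.99 elsewhere), Col15a1 at 199 CPM (6.63) and Col1a2 at 226 CPM (9.16). Col6a1 was at 59.0 CPM (5.57), Col6a2 at 35.5 CPM (2.13), Fbln2 at 35.0 CPM (2.76) and Fstl1 at 117 CPM (21.9). The pericyte genes Anpep and Tbx18 were at 16.1 CPM (0.766) and 26.9 CPM (1.09). Summed meningeal fibroblast markers in that library were 275 CPM, against 104 to 709 CPM in control libraries, and their part was not tested.

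The other flags stood alone. In Rbpj-/- gliomas Cald1 was low in replicate 1, at 80.8 CPM against 148 to 164 CPM in the others. Fn1 was low in Rbpj-/- replicate 2, at 32.4 CPM against 93.2 to 95.2 CPM. Lamc1 was high in Rbpj-/- replicate 3, at 231 CPM against 149 to 156 CPM, and Kcnj8 was high in Rbpj-/- replicate 4, at 0.998 CPM against 0.412 to 0.468 CPM. Mylk was low in Notch1-/-Notch2-/- replicate 4, at 1.91 CPM against 5.77 to 7.39 CPM. Cnn1 was at 0.0414 CPM in Notch2-/- replicate 5, which is 2 reads, and at 0 in the others. Fn1 was low in control replicate 2, at 38.6 CPM against 70.1 to 92.8 CPM.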

How the results depend on the processing

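No fold change of the followed genes reversed a call under any alternative. Of single-gene values outside the fits that leave out a library, 1861 kept their side of the threshold, 55 gained a call and 18 lost one. A filter of 10 CPM in 4 libraries left 27 genes tested and called 3 in Rbpj-/-, 3 in Notch1-/-Notch2-/-, 3 in Notch1-/- against control and 2 in Notch1-/- against Notch2-/-, from fewer genes tested. In the 19 libraries with Ddx3y and no Xist, 1 was called in Rbpj-/- (Vtn, adjusted p = 0.0713, and Rgs5, 0.0801, were lost) and 2 in Notch1-/- against Notch2-/-, from fewer libraries. DESeq2 called 11 in Notch1-/-Notch2-/-, 10 of which fell, where 21.2% of all genes fell. Voom called 17 in Notch1-/-Notch2-/- and 24 in Notch1-/-, of which 16 and 23 fell, where 23.6% and 22.0% of all genes fell. With the compared libraries only, 19 were called in Notch1-/-Notch2-/- and 1 in Notch2-/- (Acta2). The cause of these shifts was not tested. The share of all genes called is not given for the strict filter, the 19 libraries or the replicate block. Nor is it given for the compared libraries in Notch1-/-Notch2-/-. Those counts show only how the calls moved, not whether they exceed that share.

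Leaving out 1 library left between 4 and 5 genes called in Rbpj-/-, between 6 and 14 in Notch1-/-Notch2-/- and between 7 and 28 in Notch1-/- against control, and between 4 and 18 in Notch1-/- against Notch2-/-. It left 0 in every such fit of Notch2-/- against control and of Rbpj-/- against Notch1-/-Notch2-/-. In Notch1-/-Notch2-/- and Notch1-/- against control and in Notch1-/- against Notch2-/-, the highest counts came without Notch1-/- replicate 5. There 13, 27 and 18 genes fell, where 19.0%, 14.9% and 3.77% of all genes fell. That library was the highest for many of these same genes, so these counts are partly built in.

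With the replicate block, 4 genes were called in Rbpj-/-, 9 in Notch1-/-Notch2-/-, 10 in Notch1-/-, 0 in Notch2-/-, 0 in Rbpj-/- against Notch1-/-Notch2-/- and 5 in Notch1-/- against Notch2-/-. Same-numbered libraries deviated together in some pairs and not in others: correlations ran from -0.34 to 0.63, and in no comparison were all over 0.1. The highest were 0.63 for replicate 4 of Rbpj-/- and Notch1-/-Notch2-/- and 0.57 for replicate 3 of Notch2-/- and control. Nothing in the labels says that a number pairs samples, so the numbers were not taken as pairs. Whether single numbers are linked was not tested.

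Higd1b, Kcnj8, Ndufa4l2 and Myh11 rest on few reads, with as few as 0 to 3 counts in a library, and small differences in them were not detectable at this depth.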
